A study of Mus musculus with 2 samples.

Results

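The integrins and laminins are the receptors and ligands through which mammary epithelium sits on its basement membrane. Their loci were described here from single-nucleus chromatin accessibility (scATAC-seq) of mouse mammary organoids. The members were 36 of the 21911 protein-coding genes of GENCODE M21, taken by symbol: 17 integrin alpha genes (Itga with a number, Itgad, Itgae, Itgal, Itgam, Itgav and Itgax), 8 integrin beta genes (Itgb) and 11 laminin genes (5 Lama, 3 Lamb and 3 Lamc). Each locus was the annotated gene plus 2 kb upstream, in mm10 coordinates. All 36 loci held accessible regions, 674 in all, of which 461 were called as peaks in both libraries and 29 of those also lay on another protein-coding gene.

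Organoids were grown from mammary glands of C57BL/6J mice of the genotype shTRPS1.34 ki/+; CAG-rtTA3 tg/+, which was carried by both groups. The first group received doxycycline at 0.1 µg/ml (DOX), which induces the short hairpin RNA against Trps1, and the control group received the ethanol vehicle (EtOH), each for 7 days. Each group gave 1 library, made from the mixed cells of several mice. With 1 library per group no test between DOX and EtOH was possible, every value below compares these libraries, and the 95% intervals given cover counting error alone. The agent and the hairpin cannot be told apart in this design, since no library received doxycycline without the hairpin. The rtTA3 transactivator is driven by the broadly active CAG promoter, so the hairpin can be induced in immune as well as in epithelial cells, and the hairpin cassette sits in the Col1a1 locus. A legend of the study names wild-type mice for this experiment while the sample labels name shTrps1 mice, and the labels were followed. The hairpin acts on the mRNA, so accessibility at Trps1 does not check the labels.

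Integrins are receptors made of an alpha and a beta chain that tie the cell to its matrix or to other cells. Laminins are cross-shaped trimers of an alpha, a beta and a gamma chain and form, with collagen IV and nidogen, the sheet of the basement membrane. In the mammary gland the laminin receptors with the beta-1 and beta-4 chains anchor basal and luminal cells, while the integrins with the beta-2 chain belong to leukocytes.

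The DOX library held 3071 nuclei with a median of 75296 counts and the EtOH library 3104 nuclei with a median of 66789.5, and 23 cell barcodes occurred in both. Clustering on regions outside the member loci gave 8 clusters. The immune marker genes were more accessible in 2 clusters than in the other nuclei, and 5 clusters were counted as epithelial. The median log2 ratio of the 12 epithelial markers to the other nuclei was between 0.47 and 0.52 in 4 of them. In cluster 7 it was -0.27, and that cluster was counted as epithelial on its basal markers (0.87), with the fibroblast markers at 0.64. Epithelial nuclei made up 1744 (56.8%) of DOX and 2800 (90.2%) of EtOH, and immune nuclei 1283 (41.8%) and 283 (9.12%). Different clusters held most of the epithelial nuclei in each library. In EtOH, 1613 lay in cluster 1, which had the luminal progenitor markers (LP-like), against 56 in DOX. In DOX, 1379 lay in cluster 2, against 20 in EtOH, so that cluster 2 may stand for the DOX library. It was given no lineage because its epithelial markers (0.49) stood above each lineage list. Those were basal (0.42), luminal progenitor (0.22) and hormone-sensing luminal (0.10). In cluster 1 the luminal progenitor markers (0.51) stood above the epithelial markers (0.47). The other epithelial clusters were 4 and 6, with hormone-sensing luminal markers (HS-like), and 7 (basal-like). The macrophage markers Csf1r (134 in DOX and 137 in EtOH) and C1qa (36.9 and 35.4) were accessible in the immune nuclei, in counts per 1000000 counts of the same class and library in shared regions (CPM). Of the 5 T cell markers, Cd3d (39.4 and 40.4) and Cd4 (13.3 and 13.9) were higher in immune than in epithelial nuclei, and Cd3e, Cd3g and Cd8a were lower. Of the 5 endothelial markers tested, 4 in DOX and 2 in EtOH were higher in immune nuclei. The last cluster, of 44 and 21 shallow nuclei, was left out.

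The sequences of 6 member regions are shown because the results turn on them: both Lama4 regions and the Lama1 region that were most accessible in DOX relative to EtOH in epithelial nuclei, the Itgb5 region that was least accessible, the Itgax promoter region of immune nuclei and an Itgb6 region of epithelial nuclei. Each run is the central 300 bases of the region on the forward strand of GRCm38 (mm10). The words searched on both strands were TGANTCA for AP-1, GGAATG for TEAD factors, AGATAA for GATA factors, GGAAGT for ETS factors, GAGGAA for PU.1, TGTGGT for RUNX factors and TGTTTAC for FOX factors, and capitals mark their matches. The ETS and PU.1 words can overlap, as in the second Lama4 window. The Itgax window lies upstream of the start site and the other 5 lie in introns.
Lama4, chr10:38980942-38981241: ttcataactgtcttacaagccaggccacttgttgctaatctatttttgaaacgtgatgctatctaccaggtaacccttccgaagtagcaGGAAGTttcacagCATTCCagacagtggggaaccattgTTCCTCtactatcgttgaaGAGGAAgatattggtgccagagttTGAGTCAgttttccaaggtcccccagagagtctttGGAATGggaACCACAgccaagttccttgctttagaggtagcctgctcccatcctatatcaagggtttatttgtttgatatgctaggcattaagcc
Lama4, chr10:39044633-39044932: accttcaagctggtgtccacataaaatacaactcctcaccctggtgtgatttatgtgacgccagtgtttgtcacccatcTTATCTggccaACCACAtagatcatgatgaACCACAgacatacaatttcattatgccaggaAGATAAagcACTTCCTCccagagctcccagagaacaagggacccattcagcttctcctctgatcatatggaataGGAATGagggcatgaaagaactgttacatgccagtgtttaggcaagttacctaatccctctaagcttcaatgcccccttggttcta
Lama1, chr17:67715678-67715977: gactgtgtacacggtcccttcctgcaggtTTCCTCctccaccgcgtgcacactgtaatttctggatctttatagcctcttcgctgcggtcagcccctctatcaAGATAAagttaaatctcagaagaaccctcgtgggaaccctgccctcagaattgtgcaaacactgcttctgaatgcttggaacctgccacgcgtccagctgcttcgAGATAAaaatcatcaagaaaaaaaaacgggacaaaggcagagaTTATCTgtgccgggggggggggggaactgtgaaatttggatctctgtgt
Itgb5, chr16:33927424-33927723: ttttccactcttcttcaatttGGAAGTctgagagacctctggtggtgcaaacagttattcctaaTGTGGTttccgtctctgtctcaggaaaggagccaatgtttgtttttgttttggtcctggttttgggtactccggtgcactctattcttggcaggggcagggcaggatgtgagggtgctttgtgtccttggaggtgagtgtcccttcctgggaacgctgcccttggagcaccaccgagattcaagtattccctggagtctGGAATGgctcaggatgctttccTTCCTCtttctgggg
Itgax, chr7:128129147-128129446: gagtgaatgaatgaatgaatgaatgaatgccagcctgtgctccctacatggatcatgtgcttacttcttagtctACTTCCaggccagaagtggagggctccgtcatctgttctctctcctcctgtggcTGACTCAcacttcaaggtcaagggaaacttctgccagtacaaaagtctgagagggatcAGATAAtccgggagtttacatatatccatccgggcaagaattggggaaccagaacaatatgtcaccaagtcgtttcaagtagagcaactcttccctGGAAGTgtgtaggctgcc
Itgb6, chr2:60689061-60689360: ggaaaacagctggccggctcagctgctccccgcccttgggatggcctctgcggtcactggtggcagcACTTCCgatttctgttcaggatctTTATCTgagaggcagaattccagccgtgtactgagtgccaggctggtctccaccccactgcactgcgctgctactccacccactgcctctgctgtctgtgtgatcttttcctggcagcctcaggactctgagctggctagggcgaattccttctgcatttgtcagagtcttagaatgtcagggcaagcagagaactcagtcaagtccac

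Relative to epithelial nuclei, Itgax, Itgam and Itgb2 were the members most accessible in immune nuclei, and Lama1, Itgb6 and Lamb1 were the least accessible. Of the 36 members, 11 were at least 1.5-fold higher in immune than in epithelial nuclei of DOX, against 20.6% of all 17745 protein-coding loci tested, and 13 were lower, against 25.9%. In EtOH 12 were higher, against 21.7% of 17732 loci, and 16 lower, against 27.5%. The median log2 ratio of the members was -0.31 in DOX and -0.29 in EtOH, while the median of all loci was 0.17 and 0.16.

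**Figure D1:**
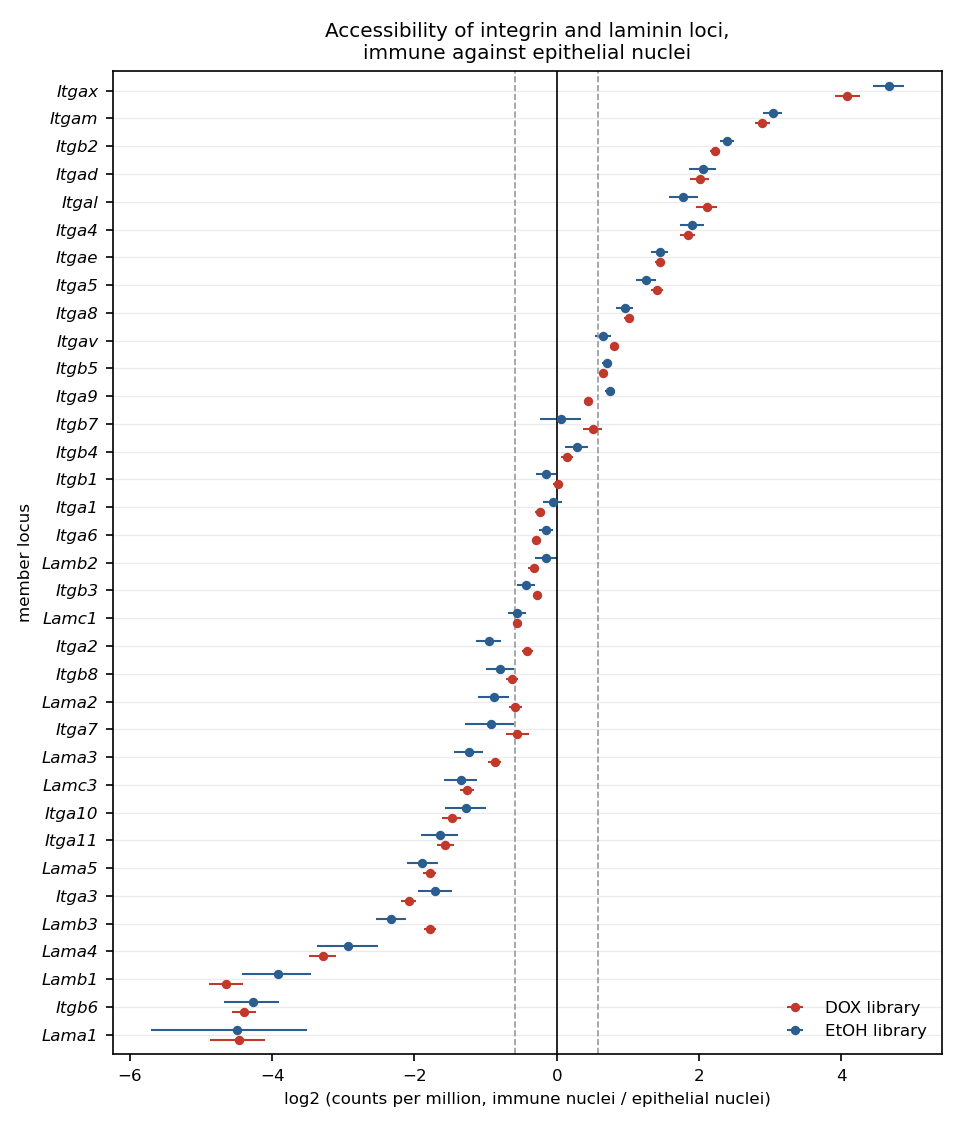
Each point is the log2 ratio of CPM in immune nuclei to those in epithelial nuclei of the same library (red, DOX; blue, EtOH) at a member locus (1 member is not drawn), with its 95% counting interval; dashed lines mark 1.5-fold. Itgax stands highest (4.08 in DOX and 4.66 in EtOH), and Lama1, Itgb6 and Lamb1 stand lowest in both libraries.

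Itgb2 encodes the beta-2 chain shared by the leukocyte integrins. Its locus had 160 CPM in immune nuclei of DOX and 159 in EtOH, against 34.1 and 30.3 in epithelial nuclei, log2 ratios of 2.23 (95% interval 2.16 to 2.30) and 2.39 (2.29 to 2.49). Among its regions, chr10:77550688-77551596 was the most accessible in immune nuclei, with 50.1 and 50.9 CPM against 0.48 and 0.59 in epithelial nuclei. Itgax, which encodes the alpha-X chain (CD11c) of macrophages and dendritic cells, had 73.2 and 72.4 CPM in immune nuclei and 4.32 and 2.86 in epithelial nuclei. The promoter region of Itgax shown above (chr7:128128872-128129722) had 24.4 and 24.6 CPM against 0.40 and 0.32. Both regions were picked for their level in immune nuclei.

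Itgam, the alpha-M chain (CD11b) of myeloid cells, had 111 and 109 CPM in immune nuclei against 15 and 13.3, but its 10 shared regions all lay on another annotated gene as well, so that the signal cannot be given to Itgam alone. Itgal, the alpha-L chain of LFA-1, had 33.0 and 35.3 CPM against 7.66 and 10.3. Its 2 most accessible immune regions lay at its start, and chr7:127295822-127296671 alone held 15.9 and 17.4 CPM against 0.33 and 0.30. Itgad, the alpha-D chain, had 38.7 and 42.2 CPM against 9.62 and 10.2. The 6 immune markers together had 81.0 CPM in epithelial nuclei of DOX and 78.7 of EtOH, against 496 and 495 in immune nuclei, and 5 of them were higher in immune nuclei. Tyrobp was lowest in epithelial nuclei (0.70 and 0.37 CPM) and Spi1 highest (51.2 and 49.4 against 173 and 168 in immune nuclei), while Cd3e was higher in epithelial nuclei (4.99 and 4.23 against 2.01 and 1.75). How much of the leukocyte integrin signal in epithelial nuclei comes from free DNA or from mixed droplets was not tested.

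Itga4, the alpha-4 chain of the VCAM-1 receptor, was higher in immune nuclei (57.9 and 51.1 CPM against 16.2 and 13.7), and its regions were split. Its start region chr2:79254690-79255800 had 40.2 and 31.8 CPM in immune against 1.25 and 1.84 in epithelial nuclei, and the intronic chr2:79309293-79310216 had 0.36 and 0.56 against 6.67 and 5.91. Itgae, which encodes the alpha-E chain that binds E-cadherin, had 96.3 and 93.2 CPM against 35.2 and 34.2. The fibronectin receptor chain Itga5 had 71.1 and 67.4 against 26.9 and 28.3, and Itga8 had 84.9 and 87.0 against 42.2 and 44.9. Itgav and Itgb5, which pair as a vitronectin receptor, were higher as well, Itgav with 99.5 and 106 against 56.9 and 67.7 and Itgb5 with 250 and 270 against 160 and 165. Itga9 passed 1.5-fold in EtOH (0.75, 0.68 to 0.82) and not in DOX (0.44, 0.39 to 0.48). Itgb7, the partner of alpha-4 and alpha-E, was near equal in EtOH (15.1 against 14.4 CPM) and did not pass in DOX (20.7 against 14.6).

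All 11 laminin loci had ratios below 0 with intervals below 0 in both libraries, a count without a share of all loci beside it. Of the 11, 8 in DOX and 9 in EtOH passed 1.5-fold, beside 25.9% and 27.5% of all loci. The median log2 ratio of the laminins was -1.78 in DOX and -1.89 in EtOH. Lama1, an alpha chain of embryonic and epithelial basement membranes, had 31.0 and 25.3 CPM in epithelial nuclei and 1.40 and 1.12 in immune nuclei. Lamb1, the beta chain of its trimer, had 92.4 and 80.5 against 3.69 and 5.32, with log2 ratios of -4.64 (-4.88 to -4.41) and -3.92 (-4.42 to -3.46). The 10 Lamb1 regions and the 5 Lama1 regions were each at least 2-fold lower in immune nuclei of both libraries. On all protein-coding loci 46.8% of regions in DOX and 50.8% in EtOH were.

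Lama4, an alpha chain best known from vessels and muscle, had 58.7 and 50.7 CPM in epithelial and 6.01 and 6.66 in immune nuclei. Lamb3, the beta chain of the laminin that anchors hemidesmosomes, had 111 and 130 CPM in epithelial against 32.3 and 26.0 in immune nuclei, and 9 of its 23 shared regions also lay on another gene. Lama3, the alpha chain of the same laminin, had 66.0 and 69.5 against 36.0 and 29.6. Lama5, the alpha chain of most adult epithelial basement membranes, had 94.2 and 92.4 against 27.4 and 24.9. Lamc1, the gamma chain of most laminins, did not pass in either library (111 and 112 against 75.2 and 75.5).

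Among the integrins, Itgb6, the chain of the epithelial receptor that frees latent TGF-beta, was the lowest in immune nuclei. Its locus had 145 and 156 CPM in epithelial and 6.91 and 8.06 in immune nuclei, log2 ratios of -4.40 (-4.57 to -4.23) and -4.27 (-4.67 to -3.90). All 17 Itgb6 regions were at least 2-fold lower in immune nuclei of both libraries, beside 46.8% in DOX and 50.8% in EtOH on all protein-coding loci. Itga3, a laminin receptor chain, had 77.0 and 69.2 CPM against 18.2 and 21.2. Itga10 and Itga11, collagen receptor chains, were lower in both libraries, Itga10 with 13.5 and 14.4 CPM in immune against 37.7 and 34.9 in epithelial nuclei and Itga11 with 16.7 and 17.4 against 49.5 and 54.2. Itgb8 was lower too, with 35.2 and 31.6 against 54.6 and 54.8.

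The chains of the main epithelial laminin receptors were near equal between the classes as whole loci. Itga6 had 151 and 145 CPM in epithelial and 123 and 131 in immune nuclei, Itgb1 had 60.0 and 64.9 against 60.7 and 58.4, and Itgb4 had 39.8 and 40.2 against 43.9 and 48.9. Single regions of Itga6 and Itgb4 differed in both directions in both libraries, and those of Itgb1 in DOX alone. Of the 23 shared Itga6 regions, 5 were at least 2-fold higher and 8 lower in immune nuclei of DOX, beside 19.9% and 46.8% of regions on all protein-coding loci. Of the 8 Itgb1 regions tested in DOX, 2 were higher and 1 lower. In EtOH 0 of 7 were higher and 3 lower, beside 16.6% and 50.8% of regions on all protein-coding loci. Among the 2 higher in DOX, chr8:128693792-128694955 was at 2.16 in DOX and -2.31 in EtOH, over peaks that cover different stretches in the libraries. The Itgb1 start region chr8:128685232-128686109 had 45.7 and 44.5 CPM in epithelial against 41.3 and 46.5 in immune nuclei. The Itga6 start region chr2:71786561-71787409 had 41.6 CPM in epithelial nuclei of DOX and 38.3 of EtOH, against 22.3 and 23.4 in immune nuclei. A region near the 3′ end, chr2:71843068-71843954, had 0.53 and 0.42 CPM in epithelial and 26.4 and 28.0 in immune nuclei. The Itgb4 start region chr11:115974508-115975407 had 32.2 and 32.7 CPM in epithelial against 6.43 and 5.39 in immune nuclei, while the exonic chr11:116004648-116005554 had 4.23 and 4.41 against 31.6 and 37.0. The locus sum of Itgb4 thus joined regions of opposite direction, and with the region within 1 kb of the start alone its log2 ratio was -2.33 in DOX and -2.60 in EtOH. Lamb2 was of the same kind, with ratios of -0.32 and -0.15 over the locus and -2.16 and -2.15 near its start.

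**Figure D2:**
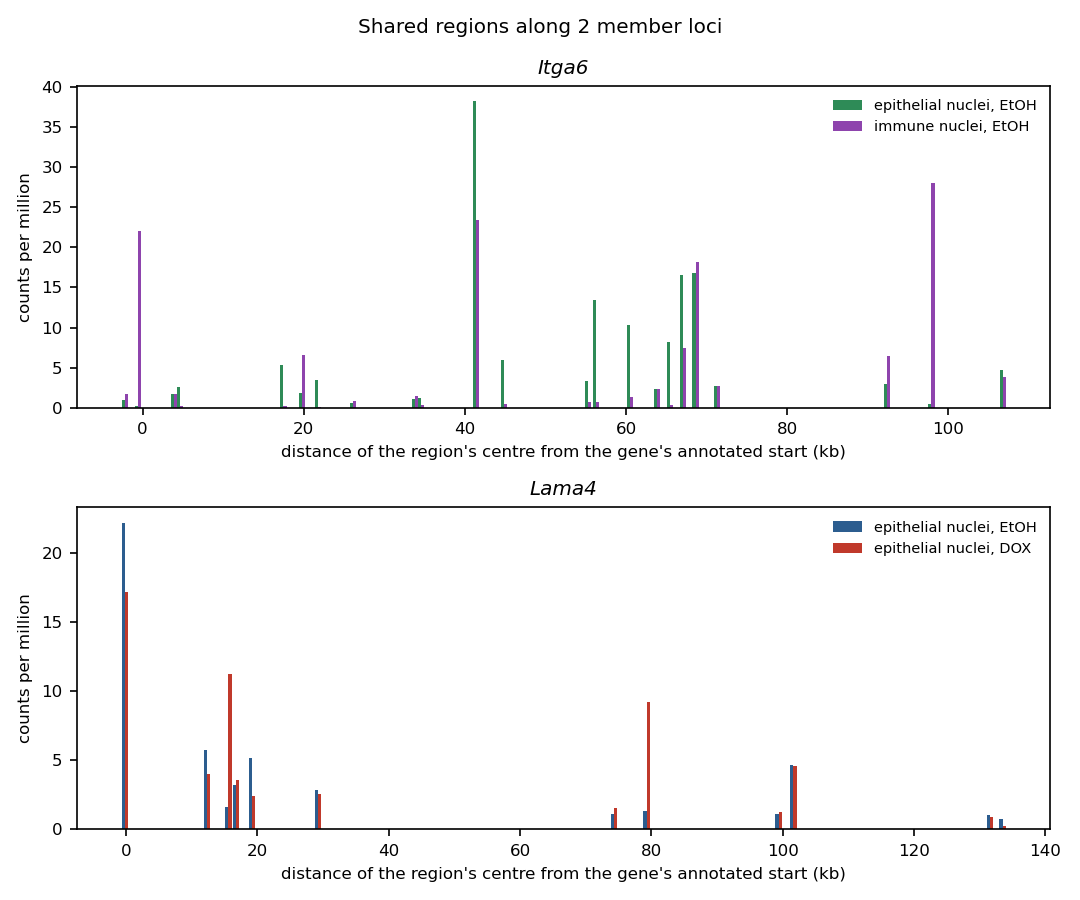
Bars give CPM in each shared region along Itga6 (upper panel, epithelial and immune nuclei of EtOH) and Lama4 (lower panel, epithelial nuclei of EtOH and DOX), placed by the distance of the region's centre from the annotated gene start, with paired bars side by side. In Itga6, the region near the 3′ end is high in immune nuclei (28.0) and near 0 in epithelial nuclei (0.42), and in Lama4 a pair of intronic regions is higher in DOX (11.3 and 9.24) than in EtOH (1.60 and 1.33).

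Over all regions at member loci with at least 100 counts, 115 of 457 were at least 2-fold higher in immune nuclei of DOX, or 25.2%, against 19.9% of regions on all protein-coding loci, and 234 were lower, or 51.2%, against 46.8%. In EtOH 100 of 453 were higher (22.1% against 16.6%) and 248 lower (54.7% against 50.8%). The ETS word was found in 53.0% of the 115 and 57% of the 100 higher regions, against 45.7% and 48.1% of all regions higher in immune nuclei and 26.2% of all 174940 shared regions. The PU.1 word was found in 48.7% and 48.0%, against 48.2% and 50.1% and against 32.5% of shared regions. The Itgax window holds 2 ETS words and no PU.1 word.

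Levels per kb of accessible region allow genes to be ranked. In epithelial nuclei Itga10 (20.6 CPM per kb in DOX and 19.1 in EtOH), Lamb2 (17.2 and 16.5), Itgb4 (14.5 and 14.7) and Itga3 (12.4 and 11.2) were highest, in this order in both libraries. Of the 2 shared regions of Itga10 and the 4 of Lamb2, 1 each also lay on another gene. Itgax was lowest (0.99 and 0.65). In immune nuclei of DOX Itgb2 (17.4), Itgax (16.7) and Itgb4 (16) were highest, and in EtOH Itgb4 (17.8), Itgb2 (17.3) and Itgax (16.5). Lama1 was lowest there (0.30 and 0.24).

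Between DOX and EtOH the member loci of epithelial nuclei differed little. A single member, Itgax, was at least 1.5-fold higher in DOX, against 2.62% of 17712 loci, and none was lower, against 2.63%. The members' median log2 ratio was 0.02, and that of all loci was -0.00. The intervals of 16 members lay above 0 and those of 12 below 0, at sizes under 1.5-fold apart from Itgax. No share of all loci stands beside these counts of intervals, so they are not read as particular to the members. Itgax had 4.32 CPM in DOX and 2.86 in EtOH, a log2 ratio of 0.60 (0.35 to 0.85) and a fold of 1.51. This is the lowest member locus of epithelial nuclei, and 3.10 and 1.96 of these CPM came from chr7:128130188-128131025, which was not higher in immune nuclei (1.18 and 1.75). Without cluster 2 the Itgax ratio was 0.22, below 1.5-fold.

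**Figure D3:**
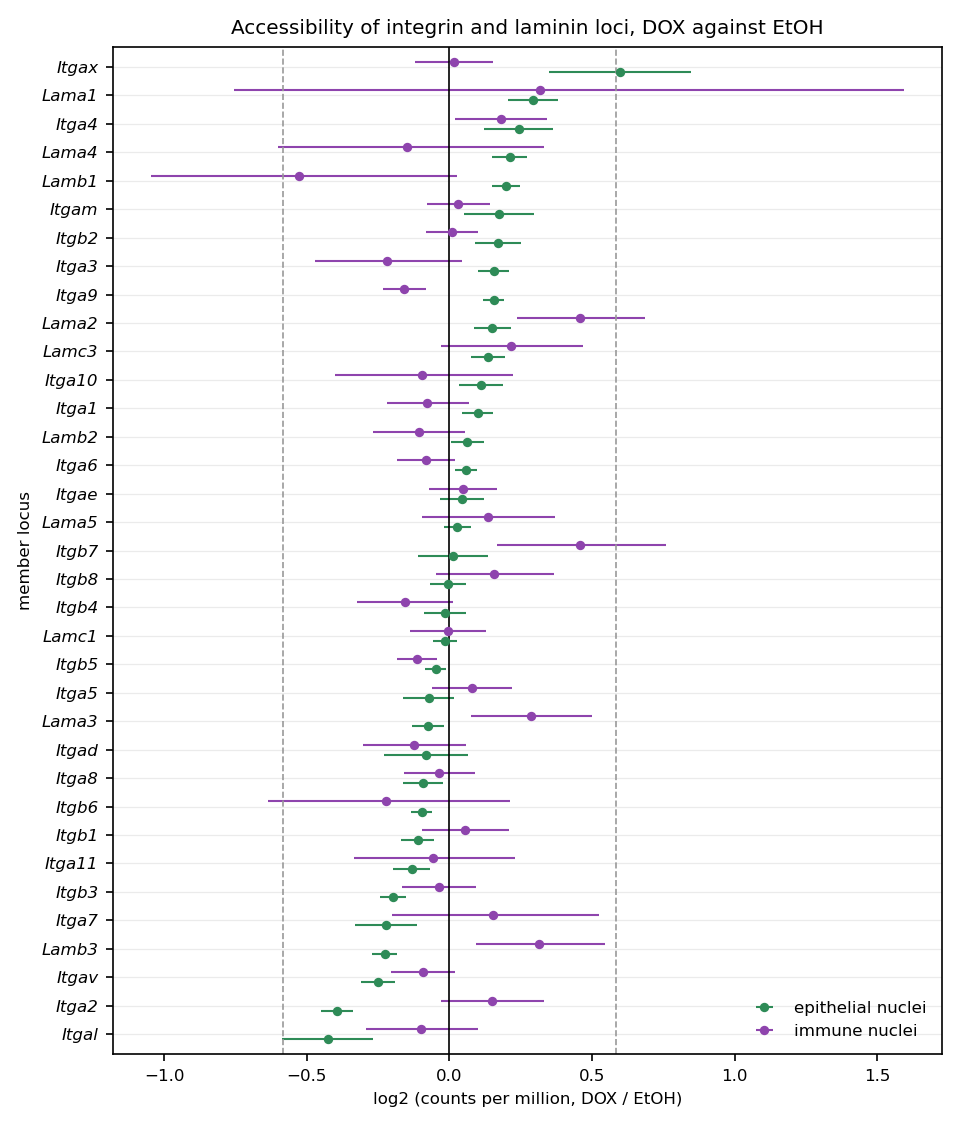
Each point is the log2 ratio of CPM in DOX to those in EtOH at a member locus, for epithelial (green) and immune (purple) nuclei, with its 95% counting interval; dashed lines mark 1.5-fold. Of the loci drawn (1 member is left out), Itgax in epithelial nuclei (0.60) is past 1.5-fold, and the widest intervals belong to loci with few counts in immune nuclei, such as Lama1.

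The lowest members in epithelial nuclei were Itgal (7.66 CPM in DOX and 10.3 in EtOH, -0.43, -0.59 to -0.27) and Itga2, the collagen receptor chain (60.5 and 79.4, -0.39, -0.45 to -0.34). Itgav followed at -0.25 (-0.31 to -0.19) and Lamb3 at -0.23 (-0.27 to -0.19). The laminins had a median of 0.13, with 7 intervals above 0 and 2 below, again without a share of all loci. Lama1 was the highest laminin at 0.29 (0.21 to 0.38), Lama4 stood at 0.21 (0.15 to 0.27) and Lamb1 at 0.20 (0.15 to 0.25). Lama1 and Lama4 turned to -0.09 and -0.56 when cluster 2 was left out. That setting puts 56 LP-like nuclei of DOX beside 1613 of EtOH, and the part of this lineage mix was not tested. Within clusters 1, 4, 6 and 7 Lama4 was at -0.24, -0.21, 0.07 and 0.11. All these intervals include 0, as do those of Lama1 in the same clusters. The receptor chains Itga6 (0.06, 0.02 to 0.10), Itgb1 (-0.11, -0.17 to -0.05) and Itgb4 (-0.02, -0.09 to 0.06) were close to 0.

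In immune nuclei no member was past 1.5-fold between DOX and EtOH in either direction, against 2.45% of 16539 loci higher and 1.22% lower. Itgb2 had 160 and 159 CPM, Itgax 73.2 and 72.4, and Itgam 111 and 109. The ratios ran from -0.53 (-1.05 to 0.03) at Lamb1 to 0.46 at Lama2 (0.24 to 0.69) and Itgb7 (0.17 to 0.76). The intervals of 5 members lay above 0 and those of 2 below, again without a share of all loci.

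Within clusters that held at least 50 nuclei of each library, Itgax was 0.80 (-0.04 to 1.61) in HS-like cluster 4, where 3.32% of loci were higher, with 3.38 CPM in DOX and 1.94 in EtOH. In the LP-like cluster it was -1.54 (-4.60 to 0.33), on 4 counts in the 56 DOX nuclei. It was the 1 member lower there, where 5.79% of loci were lower, and none was higher, where 2.22% were. Both intervals include 0. Itgal was -0.73 (-1.20 to -0.29) in cluster 4, where 2.75% of loci were lower, and Itgam was 0.73 (0.31 to 1.12) in cluster 6, where 2.07% of loci were higher, with none lower beside 1.65%. The basal-like cluster had no member past 1.5-fold, against 2.28% of loci higher and 2.03% lower. In immune cluster 3 Lamb1 was -1.11 (-1.68 to -0.50), with 4.55 CPM in DOX and 9.80 in EtOH, where 2.37% of loci were lower, and no member was higher, beside 2.57%. In immune cluster 5 it was 1.33 (-0.11 to 3.26), on 8 counts in EtOH, and Lamb3 was 0.69 (0.24 to 1.17), where 3.55% of loci were higher, and none was lower, beside 0.744%.

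Some members known from epithelium differed between the immune clusters 3 (732 nuclei in DOX and 148 in EtOH) and 5 (551 and 135). In DOX 6 of 36 members were at least 1.5-fold higher in cluster 3, against 8.19% of loci, and none lower, against 1%. In EtOH 6 of 33 were higher, against 6.67%, and 1 lower, against 1.97%. Itgb6 had 9.74 CPM in cluster 3 and 3.76 in cluster 5 of DOX, and 13.0 and 3.41 in EtOH. Lamb3 had 43.8 and 19.6 in DOX, and 40.6 and 12.1 in EtOH. Itgb8 had 43.5 and 26.0 in DOX, and 42.6 and 21.1 in EtOH. Itgax was lower in cluster 3 of EtOH (54.0 against 89.9, -0.73). Of the 12 epithelial markers, 4 were at least 1.5-fold higher in cluster 3 of DOX (Cldn3, Cldn4, Esrp1 and Grhl2) and the other 8 were within the fold, Ehf among them at -0.38 (-0.55 to -0.20). In EtOH 2 of 7 tested were higher, Esrp1 and Grhl2. The 12 together had 172 CPM in cluster 3 and 148 in cluster 5 of DOX, and 181 and 123 in EtOH, and their part in these values was not tested.

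The epithelial lineages differed from each other at more member loci than the libraries did. In EtOH, where each lineage was better filled, 7 members were at least 1.5-fold higher and 7 lower in the LP-like cluster than in the other epithelial nuclei, against 8.62% and 9.41% of loci. Itga8, the alpha-8 chain, had 62.2 CPM there against 24.5 (1.34, 1.24 to 1.45), Lama4 had 69.3 against 28.9 (1.26, 1.17 to 1.36), and Itgb8 had 72.8 against 33.6. Among the lower members, Lamb1 had 55.8 CPM against 110 (-0.97, -1.04 to -0.90). In DOX, on 56 nuclei, 1 member was higher (Itgb8, 81.2 against 53.9), beside 3.69% of loci, and 3 were lower, Lamb1 and Itgax (on 4 counts, -4.89 to 0.03) among them, beside 9.1%. The nuclei were grouped on other regions of the same nuclei, so these differences are a description of the clusters.

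The HS-like nuclei gave largely the same comparison turned round, since 1041 of the 1187 other epithelial nuclei beside the LP-like cluster of EtOH were HS-like. In EtOH 7 members were higher and 8 lower than in the other epithelial nuclei, against 9.27% and 10.1% of loci. Itga8 had 20.2 CPM against 61.5, Lama4 25.9 against 67.4 and Itgb8 27.6 against 73.1. Lamb1 had 111 against 60.1, Itga5 38.7 against 21.2 and Itgb6 198 against 127. In DOX 1 member was higher, where 6.54% of loci were higher, and 7 were lower, where 6.64% were lower, among them Lama4 (24.4 against 64.4) and Itga8 (18.8 against 46.0).

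**Figure D4:**
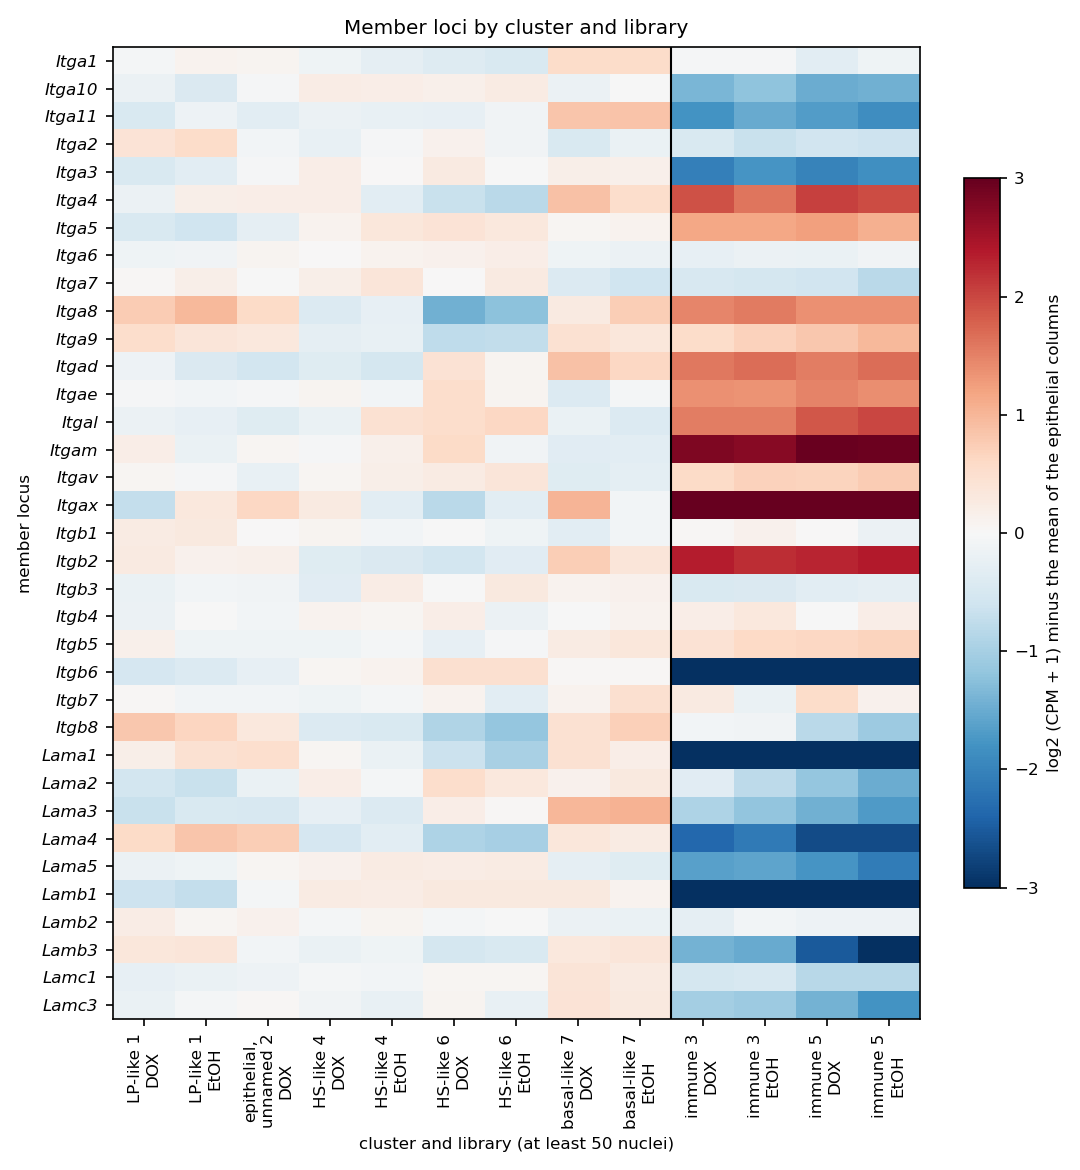
Colours give log2 (CPM + 1) of each member locus but 1 in each cluster and library with at least 50 nuclei, minus the mean of the epithelial columns to the left of the line, with the scale ending at -3 and 3. Basal-like nuclei stand out at Lama3 (163 CPM in DOX and 168 in EtOH) and Itga11 (104 and 106), HS-like cluster 6 at the low Itga8 (10.8 and 12.6), and the immune columns at Itgax.

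Basal-like nuclei had 7 members higher in each library, against 7.58% of loci in DOX and 8.11% in EtOH. Leukocyte integrin chains were among the 7 of DOX, namely Itgad, Itga4 (0.78), Itgb2 (0.67) and Itgax (0.62, -0.10 to 1.26). Lama3 had 163 CPM in DOX and 168 in EtOH against 60.9 and 64.1 in the other epithelial nuclei, 1.42 (1.28 to 1.55) and 1.39 (1.28 to 1.49). Itga11 had 104 and 106 against 46.6 and 51.4, and Itgad 24.0 and 19.9 against 8.86 and 9.65. No member was lower in DOX, against 8.65% of loci, and Itga7 (-0.88) and Itgal (-0.61) were lower in EtOH, against 11.2%. With finer clustering 905 DOX nuclei were named basal-like in place of 83, and they had no member past 1.5-fold. Of these, 821 lay in a cluster with 10 EtOH nuclei, named on basal markers at 0.45 beside epithelial markers at 0.38. The other 84 lay in a cluster with 126 EtOH nuclei and basal markers at 0.86. The 84 alone were not compared with the other epithelial nuclei in this setting.

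Cluster 2, which held 1379 DOX nuclei, had Lama4 (65.5 CPM against 34.2, 0.94) and Itga8 (46.3 against 27.2, 0.77) higher than the other epithelial nuclei of DOX, where 3.4% of loci were higher. Itgad (8.17 against 14.8, -0.86) and Lama3 (58.2 against 94.0, -0.69) were lower, where 5.27% were. At Lama4 its level lay between those of the LP-like nuclei of DOX (58.5 CPM) and of EtOH (69.3), and at Itga8 it lay below both (53.2 and 62.2).

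Single regions moved more than whole loci. Of 433 regions at member loci tested in epithelial nuclei, 20 were at least 2-fold higher in DOX, or 4.62%, against 4.18% of regions on all protein-coding loci, and 37 were lower, or 8.55%, against 8.02%. These shares are near the background. None of the 60 regions within 1 kb of a start site was higher and 4 were lower, beside 1.65% and 3.34% of 25442 such regions on all protein-coding loci. In immune nuclei 11 of 234 regions were higher, or 4.70%, against 5.06%, and 1 was lower, or 0.43%, against 0.693%.

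**Figure D5:**
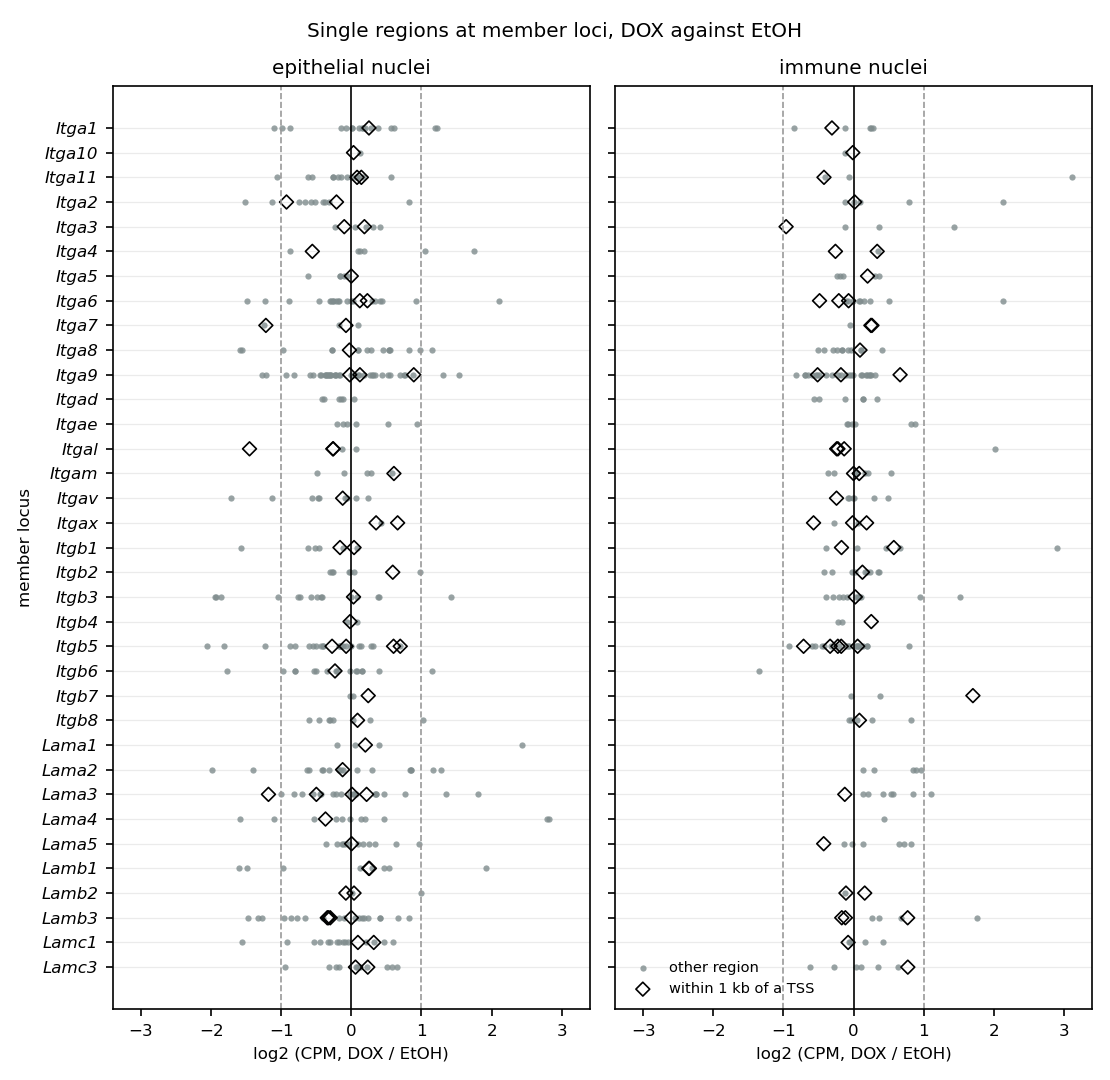
Points give the log2 ratio of DOX to EtOH of each region with at least 100 counts at each member locus but 1, in epithelial (left) and immune (right) nuclei; diamonds are regions within 1 kb of a start site and dashed lines mark 2-fold. Both Lama4 regions (2.82 and 2.79) and the Lama1 region (2.43) lie farthest to the right in epithelial nuclei, and the Itgb5 region (-2.06) farthest to the left.

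The first Lama4 region (chr10:38980612-38981572, intronic) had 1450 counts in epithelial nuclei of DOX and 298 of EtOH, 11.3 and 1.60 CPM, a log2 ratio of 2.82 (2.56 to 3.08). The second (chr10:39044330-39045236, intronic) had 1188 and 248 counts, 9.24 and 1.33 CPM, a ratio of 2.79 (2.51 to 3.09). The Lama1 region (chr17:67715321-67716334, intronic) had 587 and 158 counts, 4.57 and 0.85 CPM, a ratio of 2.43 (2.07 to 2.81). The start regions of these genes did not follow, with 0.20 at Lama1 and -0.37 at Lama4.

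Most of these counts lay in cluster 2, which held 1345 of the 1450 counts of the first Lama4 region (13.4 CPM), 1088 of the 1188 of the second (10.8 CPM) and 506 of the 587 of the Lama1 region (5.03 CPM). Of the other clusters, HS-like cluster 4 and the basal-like cluster showed part of the difference. In HS-like cluster 4 the first Lama4 region had 3.72 CPM in DOX and 1.03 in EtOH (1.86, 0.94 to 2.78) and the second 3.46 and 0.79. The Lama1 region had 1.86 and 0.79 there (1.23, -0.01 to 2.41). In HS-like cluster 6 the first Lama4 region had 4 counts in DOX and 11 in EtOH, the second 4 and 9 and the Lama1 region 8 and 29. All these intervals of cluster 6 include 0. In the basal-like cluster the first had 8.15 and 6.05 (0.43), the second 6.61 and 2.46 (1.43, 0.34 to 2.58) and the Lama1 region 7.84 and 1.03 (2.94, 1.53 to 4.68). In the LP-like cluster the first Lama4 region had 4 counts in DOX (1.23 CPM against 1.81 in EtOH, -3.62 to 1.34) and the second 12 (3.69 against 1.74, -0.40 to 2.27), and both intervals include 0. The Lama1 region had 0 counts there in DOX and 85 in EtOH (0.84 CPM), with an interval reaching up to 1.49.

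The regions lowest in DOX were the Itgb5 region (chr16:33927122-33928026, intronic, 91 against 551 counts, 0.71 and 2.96 CPM, -2.06, -2.55 to -1.61), a Lama2 region (chr10:27004412-27005323, intronic, 110 against 632 counts, -1.99) and an Itgb3 region (chr11:104667369-104668263, exonic, 275 against 1539 counts, -1.95). They were accessible in different lineages of EtOH. The Itgb5 region was open in LP-like nuclei of EtOH (4.34 CPM) and low in cluster 2 (0.67). In LP-like nuclei of DOX it had 2.46 CPM, on 8 counts in 56 nuclei. The ratio of DOX to EtOH there was -0.82 (-2.71 to 0.56), an interval that leaves the direction open. The Itgb3 region was open in HS-like nuclei, with 16.4 CPM in EtOH and 7.6 in DOX in cluster 4 (-1.11) and 22.6 and 15 in cluster 6 (-0.59), and low in cluster 2 (0.82). The Lama2 region was open there too, with 6.32 and 2.37 CPM in cluster 4 and 10.3 and 8.10 in cluster 6.

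The 20 higher member regions held the TEAD word in 50%, the RUNX word in 60% and the GATA word in 35%. All 9030 regions higher in epithelial nuclei of DOX held them in 26.3%, 38.3% and 31.2%, and all shared regions in 20.2%, 27.4% and 13.2%. The 37 lower member regions held the AP-1 word in 45.9% and the FOX word in 18.9%, against 31.0% and 12.9% of all 14449 lower regions and 20.9% and 5.40% of shared regions. In the windows shown, the first Lama4 region holds 2 TEAD words and 1 AP-1 word, the second 2 GATA and 2 RUNX words, and the Lama1 region 3 GATA words. The first Lama4 window also holds ETS, PU.1 and RUNX words, the second TEAD, ETS and PU.1 words, and the Lama1 window a PU.1 word. The window of the lowered Itgb5 region holds TEAD, ETS, PU.1 and RUNX words and no AP-1 or FOX word. A match to these letters is a description of the window.

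In immune nuclei the regions with the highest ratios had few counts in EtOH. Among regions of at least 200 counts in both libraries together, an Itgb1 region (chr8:128693792-128694955, intronic) had the highest ratio (2.90, 477 counts in DOX against 11 in EtOH) and the opposite direction in epithelial nuclei (165 and 710 counts, -1.57). The peak of EtOH covered its first part and that of DOX its later part, with 381 bases in common of 775 and 770, so the counts do not come from identical stretches. The Itga2 region (chr13:114895425-114896503, 332 and 13 counts, 2.13) also had peaks of unequal extent, 1079 bases in DOX and 763 in EtOH. A Lamb3 region (chr1:193226596-193227526, 277 and 14 counts, 1.77) also lay on another gene. The lowest of at least 200 counts were the start region of Itga3 (chr11:95076372-95077183, 3.20 and 6.24 CPM, -0.96) and 2 Itga9 introns (chr9:118616961-118617859, -0.70, and chr9:118654619-118655682, -0.65). The 1 region called lower, the Itgb6 region shown above, had 107 and 47 counts (1.29 and 3.29 CPM, -1.35, -2.08 to -0.59), and an Itga11 region with 101 and 2 counts had a ratio of 3.12.

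Peaks at member loci without a counterpart in the other library were 98 of 560 in DOX, or 17.5% (14.4 to 20.9), against 20.4% of peaks on all protein-coding loci, and 115 of 579 in EtOH, or 19.9% (16.7 to 23.3), against 21.9%. They were the weaker peaks, with medians of 225 and 174 counts against 568.5 and 524.5 for peaks with a counterpart.

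The other adhesion genes were 44 adaptors, hemidesmosome and basement membrane genes, other laminin receptors and ligands of leukocyte integrins. In DOX 9 of them were higher in immune nuclei, beside 20.6% of all loci, and 18 were lower, beside 25.9%. In EtOH 9 were higher, beside 21.7%, and 21 lower, beside 27.5%. The counts of higher genes were near the share of all loci. Parvg (28.5 and 25.7 CPM in immune against 0.38 and 0.37 in epithelial nuclei) and Fermt3 (88.7 and 86.7 against 8.21 and 8.91), the leukocyte parvin and kindlin, were higher. Another parvin, Parvb, was higher as well (118 and 122 against 21.3 and 25.9). The related Parva (11.4 and 12.4 against 94.4 and 98.4) and Fermt1 (3.89 and 5.39 against 48.2 and 41.4) were lower. So was Nid1, which links laminin to collagen IV (3.30 and 2.17 against 35.9 and 40.3). Between DOX and EtOH none of the 44 was higher in epithelial nuclei, beside 2.62% of all loci, and 1 was lower, beside 2.63%. That was Fn1, fibronectin (11.6 against 17.8 CPM, -0.62, -0.74 to -0.49). In immune nuclei Fn1 (16.9 against 9.95, 0.76, 0.41 to 1.14) and Nid1 (0.60, with an interval that includes 0) were higher, beside 2.45% of all loci.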

How the data were processed

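For each library the authors deposited raw counts of cut sites in each peak and nucleus, in whole numbers and without scaling, with the peak positions and the nucleus barcodes, which are listed as other values. Per the file headers they were made with Cell Ranger ATAC, with peaks called in each library alone; the labels give mm10 as the build. Peaks overlapping by 1 bp were merged into 275294 regions, and the 174940 with a peak in both libraries (94.5% of the counts of DOX and 94.7% of EtOH) were used. Counts were summed over the regions of a locus and the nuclei of a class and divided by the class total in shared regions (CPM). Totals per library were 224762118 counts in DOX and 211963715 in EtOH.

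Nuclei were clustered on regions outside the member loci, by latent semantic indexing (components 2 to 30, 15 neighbours, Leiden resolution 0.5) with scikit-learn 1.9.0 and leidenalg 0.10.2. Clusters were named from marker lists, and the naming rule was changed once after the clusters were seen. All deposited nuclei were kept in the clustering, doublets included. Sequences came from the GRCm38 genome.

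With 1 library per group no model was fitted. Loci of at least 100 counts were called apart at 1.5-fold and regions at 2-fold, with no p-value. Intervals of CPM are exact Poisson and those of ratios exact conditional binomial, on counts divided by 2, since a fragment gives 2 counts. On simulated counts, 100% of 200 loci set 2-fold higher were called in epithelial nuclei and 98% of 200 in immune nuclei. Of the loci set unchanged, 0.12% of 17112 and 1.42% of 15940 were called. The simulated counts held counting error alone, so they do not measure variation between libraries, nuclei or clusters. Values were given by rule for 25 members chosen by role and for the 5 highest and 5 lowest members past the fold in each comparison; regions were named as the 3 highest and 3 lowest ratios among those of at least 200 counts. Other regions were chosen after their values were seen. The members, the lists and the alternatives were chosen with earlier results of these data known. The values of 1 member, which entered every count, median and percentage, are not reported here. The peak lists' regions at Lama3 were counted but no sequence of them is shown. Depth sets the width of every interval, which is widest for loci with few counts in the 283 immune nuclei of EtOH.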

Additional observations from a re-analysis of the deposited data

Results flagged for a closer look

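The ratio of DOX to EtOH had opposite directions in epithelial and immune nuclei at 3 member loci, with intervals on either side of 0. Itga9 was at 0.15 (0.12 to 0.19) in epithelial and -0.16 (-0.23 to -0.08) in immune nuclei. Lama3 was at -0.075 (-0.13 to -0.02) and 0.29 (0.08 to 0.50), and Lamb3 at -0.23 (-0.27 to -0.19) and 0.32 (0.09 to 0.54). All are under 1.5-fold, and the differences between the classes were not tested.

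Among the regions with the highest or lowest ratios, 2 had opposite directions in the same way. The Itgb1 region was at -1.57 (-1.93 to -1.22) in epithelial and 2.90 (1.71 to 4.44) in immune nuclei, over peaks that cover different stretches in the libraries. The Itgb3 region was at -1.95 (-2.22 to -1.69) and 1.52, on 117 and 7 counts in immune nuclei. These differences were not tested either.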

How the results depend on the processing

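Of 114 recomputed counts 100 stayed within 1.5 times their value and 14 moved, and of 944 ratios of single members 741 kept within their interval and 203 moved; no called ratio changed sign. The counts of members apart between immune and epithelial nuclei stayed within 1.5 times under every alternative run, with centring on the median locus lowering all ratios by 0.17 in DOX and 0.16 in EtOH, which gives 10 higher and 17 lower in DOX and 9 and 18 in EtOH.

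Between DOX and EtOH in epithelial nuclei, 1 member was higher and 0 lower. Regions within 1 kb of a start site gave 2 higher (Itgax and Itgb2) and 1 lower (Itgal), and a fold of 2 gave 0 higher. Leaving out cluster 2, chosen after seeing the data, took Itgax below the fold, with 1 other member higher and 1 lower (Itga8). The nuclei left in that setting differ in lineage mix, with 56 LP-like nuclei in DOX and 1613 in EtOH. In immune nuclei, with 0 in either direction, finer clustering and leaving out the likely doublets each gave 1 higher (Itgb6), start regions gave 1 higher (Itgb7) and 1 lower (Itga3), peaks covering each other by 80% gave 1 lower (Lamb1), and leaving out immune cluster 3, chosen after seeing the data, gave 2 higher (Lamb1 and Lamb3). A minimum of 50 counts gave 27 higher and 10 lower regions in immune nuclei in place of 11 and 1, and finer clustering gave 0 lower. No share of all regions was computed at these settings. The shares of all loci at the other settings are not given here. The counts of members and regions in this section are thus not read as particular to the members. Finer clustering also took the 7 higher members of basal-like DOX nuclei to 0, where 821 of the 905 nuclei so named lay in a cluster of their own. The causes were not tested. With equal numbers of nuclei from each of the epithelial clusters 1, 4, 6 and 7, 365 per library, Itgax was at 0.71. Cluster 2, with 20 nuclei in EtOH, was not part of this setting. Both settings thus lack cluster 2, and they gave 0.71 on the equal numbers and 0.22 on all other epithelial nuclei. No paired analysis was possible because DOX and EtOH have 1 library each.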
